A study of Oryza sativa with 32 samples.

Results

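In the rice gene annotation MSUv.7, 1228 of the 38864 loci on chromosomes 1 to 12 that were not marked as transposable elements (TEs) shared at least 1 position with another such locus on the opposite strand. They were chosen by strand and by the ends of the gene model marked as representative, and they made 3.16% of the non-TE loci and 617 overlapping pairs. The annotation accompanied a study of aluminum (Al) stress in roots of rice seedlings grown in hydroponics. Azucena (tropical japonica), IR64 (indica) and the near-isogenic lines AZU[IR64121], written AZU[IR6412.1] in the study's text, and IR64[AZU12.1] were each sampled in control solution and after 4 h at 80 µM Al3+ activity, with 4 biological replicates in each of the 8 groups and 32 samples in all. Each near-isogenic line is a single line that carries a segment of chromosome 12 from the other parent. The values analysed here are positions and marks of gene models, so no sample entered a comparison and no expression level was measured.

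Genes on opposite strands can overlap in 3 ways. In a tail-to-tail (convergent) pair the 3′ ends run into each other, in a head-to-head (divergent) pair the 5′ ends do, and in a nested pair the whole of a gene lies inside its partner. The transcripts of such genes can carry complementary stretches and are known as cis natural antisense transcripts, a class of RNA that in plants can give rise to small RNAs and can influence the stability or transcription of its partner. For RNA-seq they matter in another way, because a read from the shared stretch can be given to the right gene only if the library records the strand and the counting uses it. The libraries of this study were strand-specific according to its methods, and the strand setting of the counting was not given in the sources used here.

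Among the pairs, 480 (77.8%) were tail-to-tail, 85 (13.8%) were nested and 52 (8.43%) were head-to-head. Every pair holds a plus-strand and a minus-strand locus, so the 612 plus-strand and 616 minus-strand loci follow from the choice. Nearly all had a single partner (1222 loci), and 6 had 2. The shared stretches covered 622 kb on both strands, and at the median a locus shared 22.7% of its length with its partner. In 210 of the 1234 sides of the pairs the overlap took at least 50% of the locus. The maps of 6 pairs show the geometry of each arrangement.

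**Figure D1:**
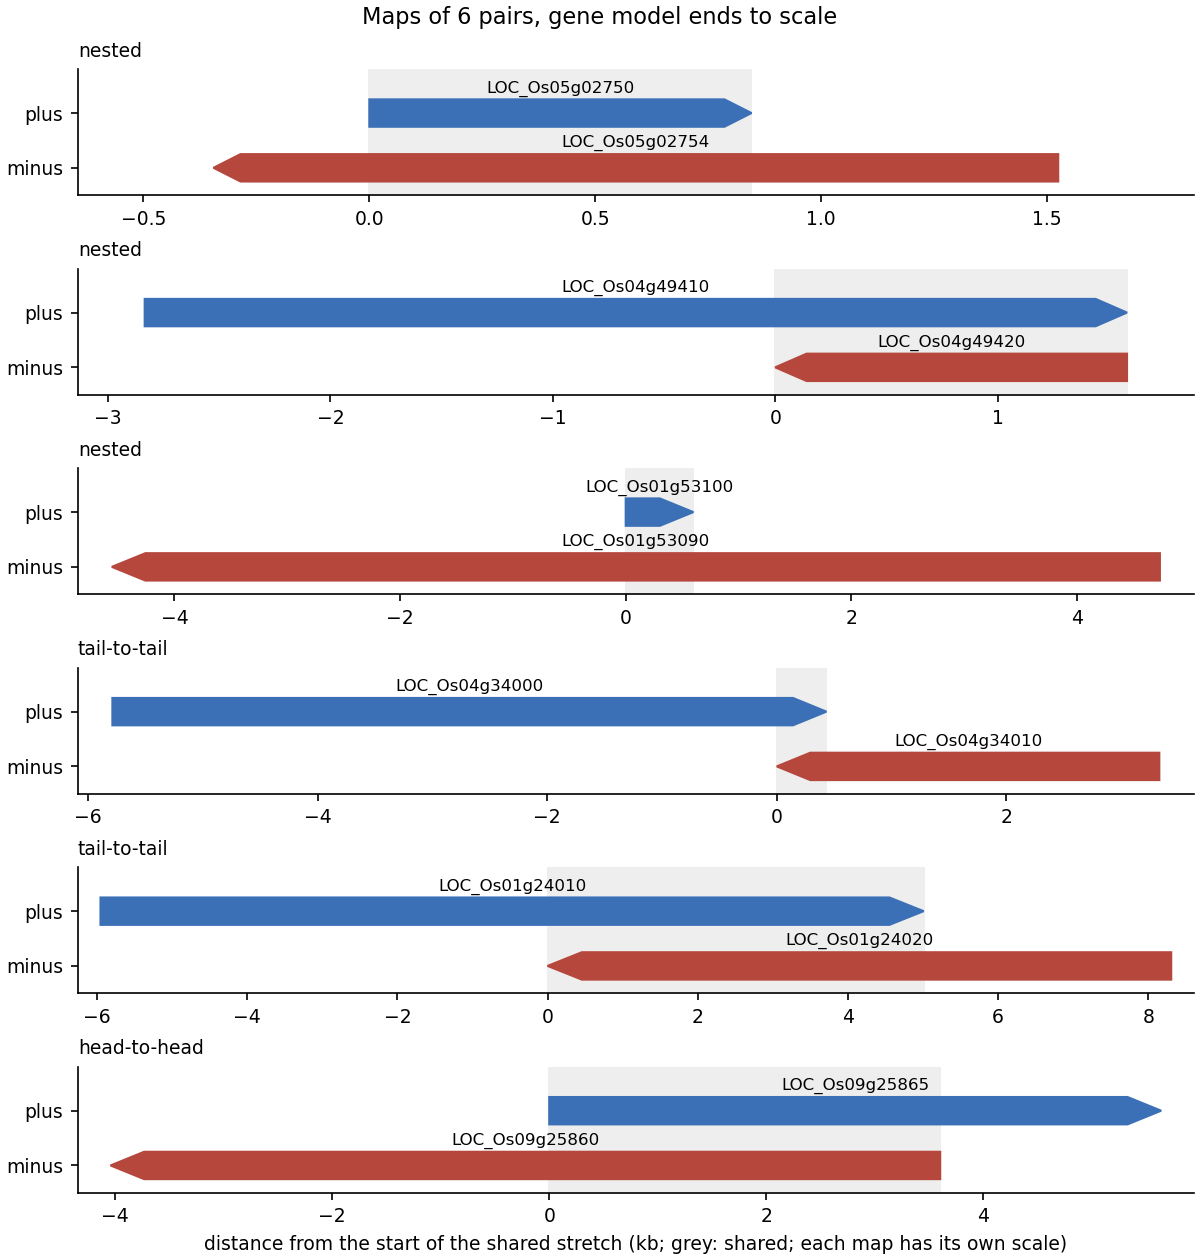
Maps of 6 overlapping pairs drawn to scale, with the plus-strand locus above and the minus-strand locus below, arrows pointing to the 3′ end, grey marking the shared stretch and the horizontal axis giving the distance from its start in kb. The first 3 pairs are nested, with STAR2 (LOC_Os05g02750) inside LOC_Os05g02754, the next 2 are tail-to-tail and the last, with 3602 shared bp, is head-to-head.

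A list of 43 loci named in the study's text and supplement was looked up. It mixes known Al tolerance genes, genes from its expression results, gene models of its mapped interval on chromosome 12 and loci genotyped to verify the identity of samples, so it is not a list of Al-responsive genes. Of the 43, 3 were among the overlapping loci, beside 3.16% of all non-TE loci. All 3 belonged to nested pairs, beside 13.8% of all pairs. With so few loci these counts are a description only. The first was STAR2 (LOC_Os05g02750, chromosome 5, 989743 to 990588, plus strand), the membrane-spanning subunit of a bacterial-type ABC transporter that is required for Al tolerance in rice. All 846 bp of its gene model lay inside LOC_Os05g02754 (989398 to 991267, minus strand), a locus of 1870 bp described only as an expressed protein. The outer locus began 679 bp downstream of the 3′ end of STAR2 and ended 345 bp upstream of its 5′ end. Every position of STAR2 was also a position of an annotated gene on the other strand. Its partner subunit STAR1, the nucleotide-binding part of the transporter, did not overlap an opposite-strand non-TE locus, and the nearest lay 592 bp away.

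The second was LOC_Os04g49410 (chromosome 4, 29485142 to 29489558, plus strand), an expansin precursor that entered the list as a genotyped locus. Expansins loosen the cell wall during growth. Its last 1582 bp held LOC_Os04g49420, a core histone gene on the minus strand. The 3′ end of the expansin gene model and the 5′ end of the histone one lay at the same position, 29489558. The third was LOC_Os01g53090 (chromosome 1, 30512276 to 30521565, minus strand), described as a pathogen-related protein. Its 9290 bp contained the 600 bp of LOC_Os01g53100, a ubiquitin family protein on the plus strand. In this pair the inner locus took 6.46% of the outer one. The study reports LOC_Os01g53090 as raised by Al in IR64 and IR64[AZU12.1] but not in the other lines, and states that its function is not known. Each of these 6 loci had 1 gene model, and each was marked as expressed.

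The other 40 did not overlap. Among them was ART1 (LOC_Os12g07280), the zinc finger transcription factor that controls Al tolerance genes in rice, whose nearest opposite-strand non-TE locus (LOC_Os12g07270) lay 3034 bp away. Over the 43 loci the median distance to that neighbor was 5440 bp, with the overlapping ones entered as negative. For 6 of them it was under 1000 bp without an overlap, among them FRDL2 (LOC_Os10g13940), a citrate transporter homolog, at 687 bp. Nrat1 (LOC_Os02g03900), which carries Al into root cells, was 1572 bp from its neighbor, and ALS1 (LOC_Os03g54790), a tonoplast ABC transporter, was 23140 bp away. Within 2 Mb of ART1 on either side, 6 of 477 non-TE loci overlapped (1.26%), in 3 pairs, beside 2.13% on the whole of chromosome 12 and 3.16% of all non-TE loci. The longest of these overlaps, 3591 bp, placed the MADS-box gene OsMADS33 (LOC_Os12g10520) wholly inside LOC_Os12g10510, an expressed protein.

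Loci of 10 families related to Al tolerance or the cell wall were also searched by their descriptions, a list made after the positions had been seen. Each share is given beside the one the family would have had at the shares of 5 length classes of all non-TE loci, and 3.16% of all non-TE loci overlapped. Of 47 MATE efflux loci, a family with citrate exporters, 3 overlapped (6.38%, by length 4.76%) and all 3 were tail-to-tail. LOC_Os06g49310 shared 2353 bp with the glycosyltransferase LOC_Os06g49320, LOC_Os09g37610 shared 1538 bp with the flavin-containing monooxygenase LOC_Os09g37620, and LOC_Os01g49120 shared 719 bp with the prenyltransferase LOC_Os01g49110. Of the 9 loci described as malate transporters 1 overlapped (11.1%, by length 3.90%). It was LOC_Os04g34010 (chromosome 4, 20592808 to 20596141), annotated as an aluminum-activated malate transporter, which shared 433 bp at its 3′ end with LOC_Os04g34000, a digalactosyldiacylglycerol synthase of chloroplast lipid synthesis. Of 58 loci matched as ABC transporters by description 4 overlapped, STAR2 among them (6.90%, by length 5.56%). The overlapping locus LOC_Os01g24010, described as a pleiotropic drug resistance protein, was not counted among them. Of 32 metal or cation efflux transporters 3 did (9.38%, by length 4.70%). Among 139 pectin-degrading and family 16 glycosyl hydrolase loci there were 8 (5.76%, by length 3.03%), which included the polygalacturonase LOC_Os03g59330, overlapping the cellulose synthase gene CESA2 (LOC_Os03g59340) by 1293 bp. Of 128 loci matched as wall-associated kinases 6 overlapped (4.69%, by length 4.34%), all of them with OsWAK names. That match left out LOC_Os12g16520, an overlapping locus described as a wall-associated receptor kinase. Of 30 small heat shock proteins 2 overlapped (6.67%, by length 1.65%). Shares below that of all non-TE loci were found for C2H2 zinc finger loci, the family of ART1, with 3 of 176 (1.70%, by length 3.36%), and for expansins, with 1 of 63 (1.59%, by length 2.33%). Of the 12 metallothionein loci 0 overlapped (by length 2.25%). These counts are small and are given as a description.

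The tail-to-tail pairs shared a median of 818 bp (quartiles 483 and 1208, range 2 to 5009). The longest overlap, 5009 bp, was between LOC_Os01g24010, a pleiotropic drug resistance transporter, and LOC_Os01g24020, an expressed protein. It took 45.7% of the former and 60.3% of the latter. Next came 4261 bp between LOC_Os12g32650, an expressed protein, and LOC_Os12g32660, which encodes an NB-ARC domain, the nucleotide-binding part of plant immune receptors. The exocyst subunit homolog ATEXO70F1 (LOC_Os07g10910) and the expressed protein LOC_Os07g10920 shared 3983 bp, which was 72.7% and 72.3% of the loci. Phosphoenolpyruvate carboxykinase (LOC_Os10g13700), an enzyme of gluconeogenesis, shared 3675 bp with LOC_Os10g13694. In these 4 pairs the partner of the named gene had no named product.

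In 309 of the 480 tail-to-tail pairs (64.4%) both descriptions named a product. The longest overlap among these, 3580 bp, joined a pfkB family kinase (LOC_Os01g63220) and a growth regulator related protein (LOC_Os01g63230). The peptide transporter PTR2 gene LOC_Os01g68510 shared 3485 bp with the pentatricopeptide repeat (PPR) gene LOC_Os01g68524. PPR proteins bind organelle RNA. A carbohydrate kinase of the FGGY family (LOC_Os02g08130) overlapped a protein kinase of the SNF1 type (LOC_Os02g08140) by 3084 bp, which was 87.5% of the second locus. The polygalacturonase LOC_Os01g07790, a pectin-degrading enzyme, was all but nested, with 99.6% of its 2793 bp inside the reach of LOC_Os01g07800. On each chromosome the longest partial overlap between named genes was tail-to-tail, and it ranged from 1538 bp on chromosome 9 (the MATE gene LOC_Os09g37610) to 3580 bp on chromosome 1. On chromosome 5 it was 2436 bp and joined the kinase stt7 (LOC_Os05g40180), described as a chloroplast precursor, and a thioredoxin (LOC_Os05g40190). On chromosomes 6, 10 and 12 one of the partners was a PPR gene, with 2670, 2518 and 2655 bp.

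**Figure D2:**
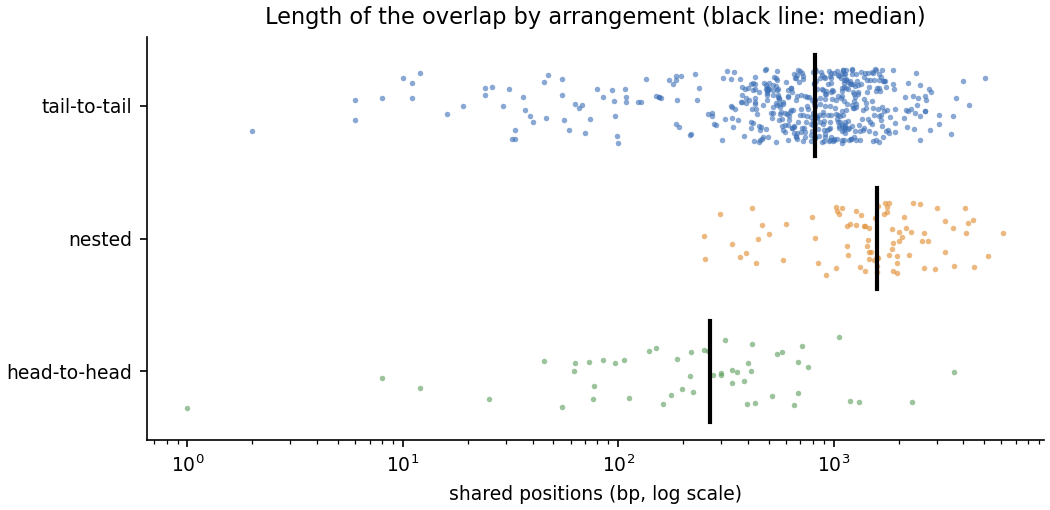
Shared positions of each of the 617 pairs in bp on a log scale, by arrangement, with each point a pair (spread vertically at random) and the black line the median. Medians were 818 bp for tail-to-tail, 1586 bp for nested and 267 bp for head-to-head pairs, and every nested overlap was at least 249 bp.

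The nested pairs had the longest shared stretches, which follows from the definition, since the shared stretch is the whole inner locus. The inner locus had a median length of 1586 bp and the outer one 5918 bp. The longest was a receptor kinase (LOC_Os01g05940) of 6101 bp inside LOC_Os01g05900, an 18545-bp locus described as a core histone. Loci with OsWAK names, of the wall-associated kinase family, made 2 nested pairs among themselves. Kinases of this family are receptors that bind pectin in the cell wall. OsWAK35a (LOC_Os04g24300, 5216 bp) lay inside OsWAK35d (LOC_Os04g24294), both described as OsWAK short genes. OsWAK129b (LOC_Os12g42070, 4075 bp) lay inside OsWAK129c (LOC_Os12g42064), of which it took 87.2%, and both were described as receptor-like protein kinases. Other inner loci with named partners were rp1 (LOC_Os01g57340) in a diacylglycerol kinase gene, a thiamine pyrophosphate enzyme (LOC_Os01g32080) in a PPR gene, and a receptor-like kinase of the CrRLK1L type (LOC_Os03g17300) in a calcium-transporting ATPase gene of the endoplasmic reticulum (LOC_Os03g17310).

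The inner loci were not evenly placed within the outer ones. In 69 of 85 pairs the inner locus lay nearer to the 3′ end of the outer locus and in 16 nearer to the 5′ end. The median distance to the 3′ end was 123 bp and to the 5′ end 3548 bp. In 36 pairs both loci had 1 end at exactly the same position, and in 34 of these it was the 3′ end of the outer locus, as in the expansin and histone pair above. In the pair of LOC_Os03g17300 and the calcium-transporting ATPase it was also the 3′ end. The inner locus was the plus-strand one in 46 pairs and the minus-strand one in 39. No product was named for 32 of the inner and 19 of the outer loci.

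Head-to-head pairs shared a median of 267 bp (range 1 to 3602), and only 5 of the 52 shared 1000 bp or more. The longest, 3602 bp, was between LOC_Os09g25865 and LOC_Os09g25860, both described as expressed proteins. In the next one, 2299 bp, LOC_Os08g01274 overlapped a protein kinase (LOC_Os08g01270). Both products were named in 10 of the 52 pairs (19.2%), against 64.4% of the tail-to-tail and 49.4% of the nested pairs. On neither side was a product named in 30.8% of the head-to-head, 9.41% of the nested and 4.58% of the tail-to-tail pairs. The 10 included a ubiquitin carboxyl-terminal hydrolase with a SAM domain protein (LOC_Os02g32540 and LOC_Os02g32530, 1190 bp), 2 neighboring genes for nuclease PA3 (LOC_Os01g03730 and LOC_Os01g03740, 417 bp), and a glutaredoxin with a wall-associated receptor kinase (LOC_Os12g16524 and LOC_Os12g16520, 385 bp).

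Overlap was compared between the 2 kinds of opposite-strand neighbors along the chromosomes. Of 9271 convergent neighbors 478 overlapped (5.16%), and of 9289 divergent neighbors 51 did (0.549%). The share was higher for convergent neighbors in 12 of 12 chromosomes, where it ranged from 2.57 to 7.53%, against 0.127 to 1.28% for divergent neighbors. Convergent neighbors that did not overlap were also closer to each other, with a median of 2038 bp between them, against 4403.5 bp for divergent ones.

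The distances between convergent 3′ ends had a dip at overlaps of 101 to 300 bp. With 0 to 99 bp between them there were 305 convergent neighbors, and with 1 to 99 shared bp there were 40. Among tail-to-tail pairs, 41 shared 1 to 100 bp, 18 shared 101 to 200 bp and 10 shared 201 to 300 bp. The number then rose again to 22 at 301 to 400 bp and 40 at 401 to 500 bp, and stayed between 24 and 38 in each class of 100 bp up to 1300 bp. Per class, overlaps of 401 to 1300 bp were thus more frequent than those of 101 to 300 bp. Head-to-head pairs had no such second rise, with 13, 8, 6 and 9 pairs in the first 4 classes and 3 in each of the next 3.

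**Figure D3:**
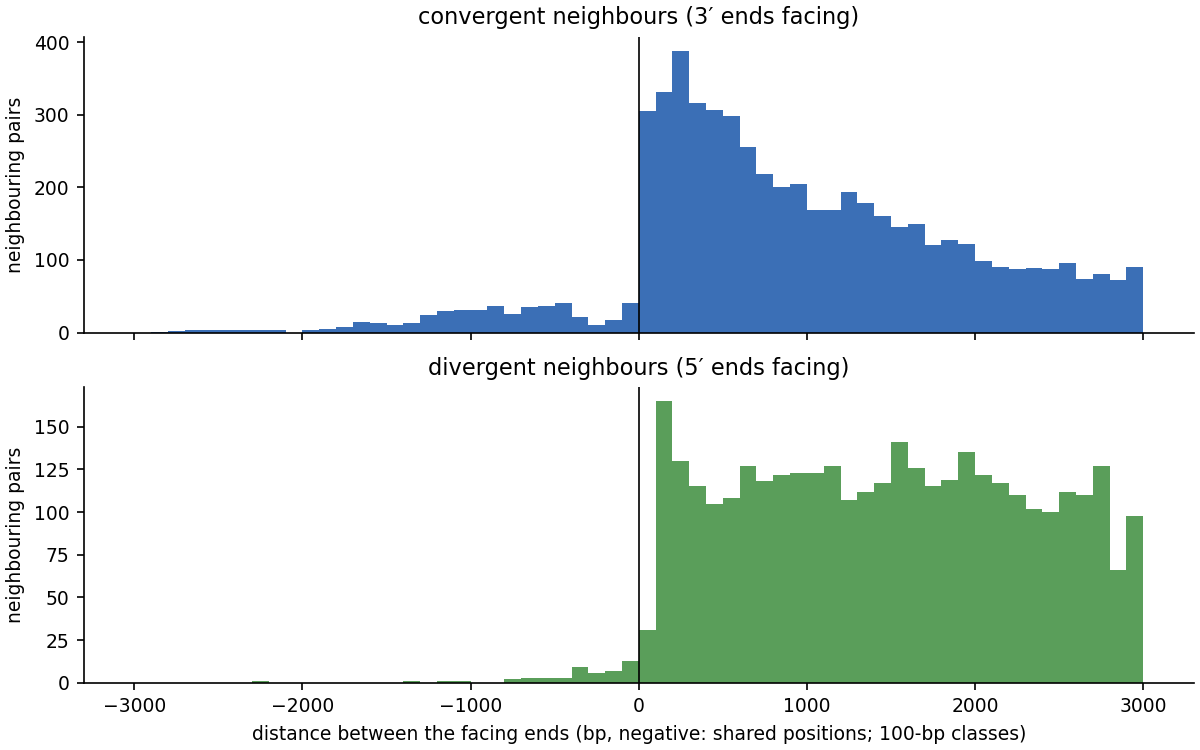
Number of neighboring opposite-strand non-TE loci by the distance between their facing ends in bp, in classes of 100 bp, with negative values for shared positions; the upper panel shows convergent and the lower panel divergent neighbors, each with its own vertical axis. Convergent neighbors dropped from 305 at 0 to 99 bp apart to a low at 201 to 300 shared bp and rose again, and divergent neighbors had few overlaps of any length.

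The threshold of 1 shared position divided loci that differed little. Just inside it, LOC_Os02g48130 and the PPR gene LOC_Os02g48122 shared 1 position head-to-head, and 7 pairs in all shared 10 positions or fewer, 5 of them tail-to-tail. Just outside it, 26 opposite-strand neighbors had 0 to 9 positions between them and all 26 were convergent. In LOC_Os11g37540, a protein phosphatase 2C, and LOC_Os11g37550, the calmodulin-related OsCML6, the gene models abutted with 0 positions between. With 1 position between were the receptor kinase gene LOC_Os03g32580, annotated as BRASSINOSTEROID INSENSITIVE 1-associated, and the transcription initiation factor LOC_Os03g32590.

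The overlapping loci were found on every chromosome, at 2.07 to 4.45% of its non-TE loci (3.00% ± 0.819, mean ± SD, n = 12 chromosomes). Chromosomes 3 (4.45%, 195 loci) and 1 (4.44%, 225 loci) stood highest, followed by chromosome 5 (3.47%). Chromosomes 11 (2.07%), 7 (2.09%) and 12 (2.13%), the last of which carries ART1, stood lowest. Per Mb there were 1.89 overlapping loci on chromosome 12 and 5.36 on chromosome 3. Tail-to-tail was the most frequent arrangement in 12 of 12 chromosomes, from 58.6% of pairs on chromosome 11 to 90.7% on chromosome 5. The order of the other arrangements varied, with more nested than head-to-head pairs on 8 chromosomes and fewer on 4. On chromosome 11 head-to-head pairs reached 27.6%, from 29 pairs. Of 380 stretches of 1 Mb, 251 held at least 1 pair, and the most was 8, at 32 to 33 and 38 to 39 Mb of chromosome 1.

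**Figure D4:**
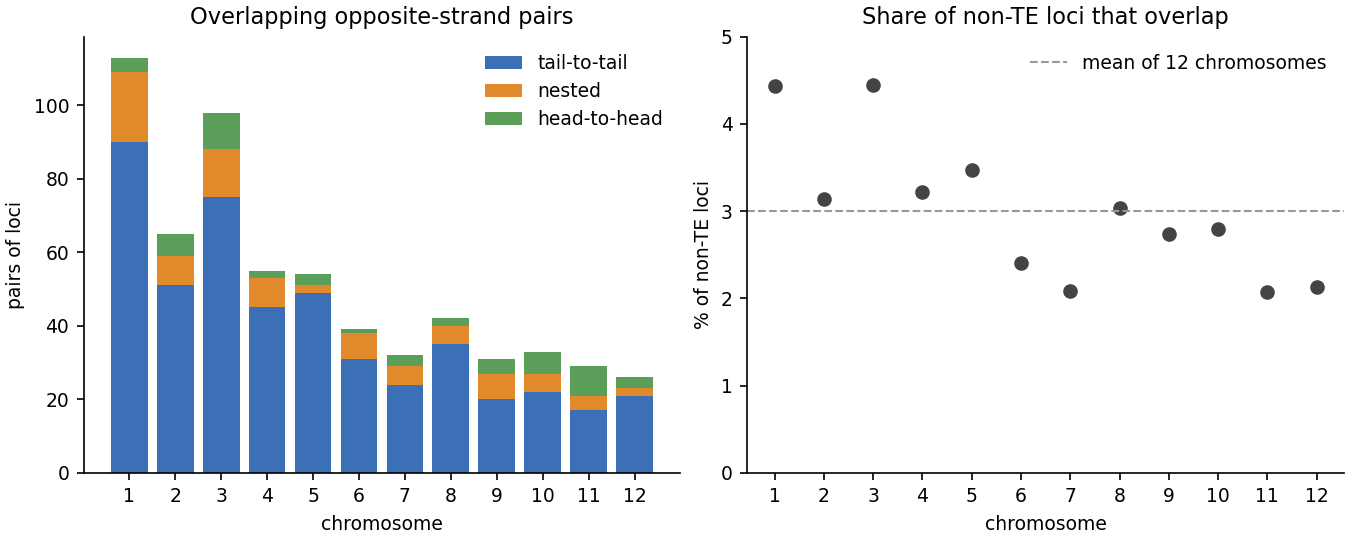
Number of overlapping pairs per chromosome, stacked by arrangement (left), and the overlapping loci as a percentage of the non-TE loci of each chromosome with the mean of the 12 chromosomes as a dashed line (right). Tail-to-tail pairs form the larger part of every bar, and chromosomes 1 and 3 stand above 4% while chromosomes 7, 11 and 12 are near 2%.

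The overlapping loci were compared with the other non-TE loci in marks that the choice of members did not use. No test was made, because loci share neighbors and chromosomes and are not replicates, and each difference is given with its spread over the 12 chromosomes. In MSUv.7 a locus is marked as expressed from evidence collected for the annotation and not from the roots of this study. That mark was carried by 1219 overlapping loci (99.3%), beside 93.6% of all non-TE loci and 93.4% of the others. The difference of 5.85 percentage points had the same direction in 12 of 12 chromosomes (3.20 to 8.13 points, SD 1.53). The 9 loci without the mark were all described as hypothetical proteins, conserved in 1 case, and each had a partner with the mark. They included LOC_Os03g12540, whose partner was the cation efflux gene LOC_Os03g12530 (135 bp). In 7 of the 9 pairs the arrangement was tail-to-tail and in 2 head-to-head. The mark and the description are not separate evidence, and among loci with a named product the difference was 0.892 points.

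More than 1 gene model, the annotation's record of alternative transcripts, was present for 366 overlapping loci (29.8%), against 16.1% of all non-TE loci and 15.6% of the others. The difference of 14.2 points was positive in 12 of 12 chromosomes (2.92 to 28.2 points, SD 8.13). Conversely, no product was named for 299 of them (24.3%), against 41.1% of all non-TE loci and 41.6% of the others, a difference of -17.3 points that was negative in 12 of 12 chromosomes (-25.5 to -4.29 points, SD 6.86). Length is computed from the positions that chose the loci and is given only as a description, with a median of 3729.5 bp for overlapping and 2117 bp for other non-TE loci.

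Length moved with all of these marks. When the non-TE loci were divided into 5 length classes of equal size, overlapping loci made 0.526, 1.53, 3.04, 4.59 and 6.11% of the classes from shortest to longest. Averaged over the classes the differences were smaller, although the expressed mark differed by more among the shortest loci than over all loci. For the expressed mark the mean of the 5 differences was 3.97 points, and it fell from 12.3 points among the shortest loci to 0.151 among the longest. For more than 1 gene model the mean was 4.38 points, with a value of -0.258 among the shortest loci, where no overlapping locus had a second model. For no named product it was -3.10 points. The direction held in all 5 classes for the expressed mark and for the unnamed products, and in the 4 longer classes for the gene models.

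**Figure D5:**
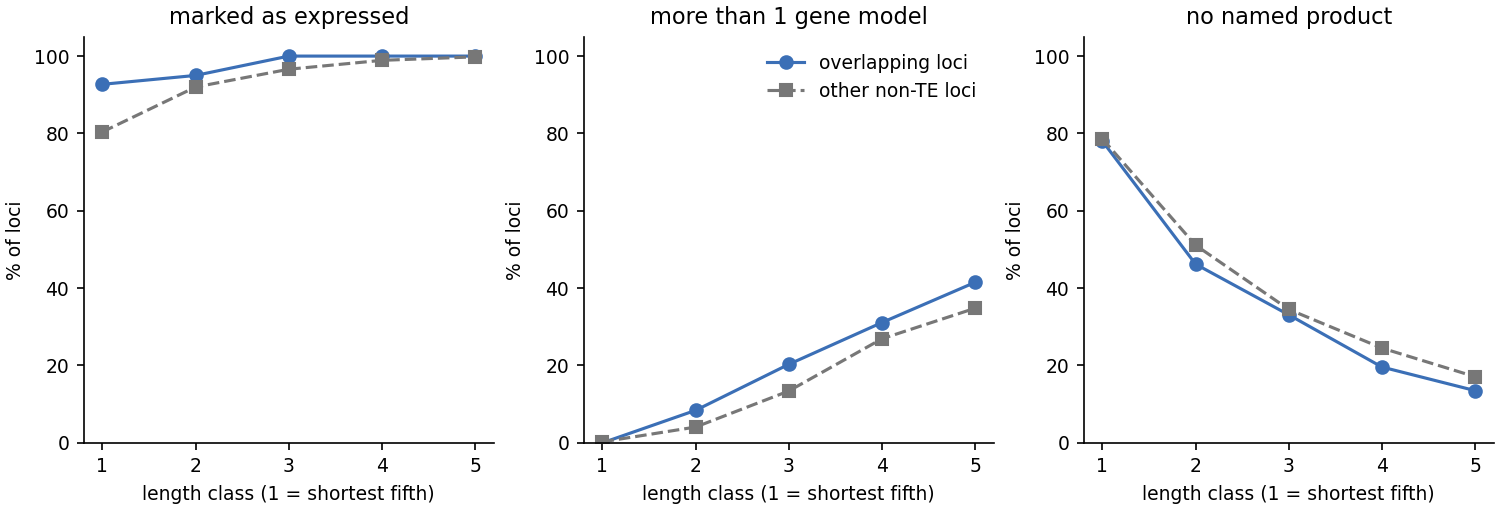
Share of loci in % marked as expressed (left), with more than 1 gene model (middle) and with no named product (right), for overlapping loci (circles) and other non-TE loci (squares), in 5 classes of locus length from the shortest (1) to the longest (5). From the shortest to the longest class each share spanned a wider range among the other loci than the 2 sets differed within a class, and the widest gap was in the expressed mark of the shortest class, 92.7% against 80.4%.

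For a locus with several gene models the overlap can depend on which model is taken. In 311 pairs at least 1 partner had more than 1 model. In 230 of these every combination of models overlapped and in 81 at least 1 combination did not. The length of the overlap differed between combinations in 138 and was the same in 173. In the nested pair of rp1 (LOC_Os01g57340) and the diacylglycerol kinase gene LOC_Os01g57350, 1 of 2 combinations overlapped. For the ubiquitin hydrolase gene LOC_Os02g32540 and LOC_Os02g32530 it was 1 of 3. The most models, 11, belonged to LOC_Os05g40270, an expressed protein that shared 1051 bp tail-to-tail with the B3 domain gene LOC_Os05g40280 in 10 of 11 combinations. In all, 21 overlapping loci (1.71%) had 5 or more models, against 0.858% of the other non-TE loci. An example was LOC_Os02g57280, a membrane protein with CBS domains and 6 models, which lay inside the cytochrome P450 gene LOC_Os02g57290 and overlapped it in all 24 combinations.

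The descriptions named a wide range of functions. Kinases were the most numerous of the named classes searched, with 73 overlapping loci, followed by 40 transporters, 39 PPR proteins and 28 transcription factors. Relative to the size of the class, 9.97% of 391 PPR loci overlapped, 8.70% of 69 aminoacyl-tRNA synthetases, 7.50% of 80 DNA repair and replication loci and 5.99% of 334 RNA processing loci, beside 3.16% of all non-TE loci. The share was 4.51% for kinases and 5.62% for transporters. At the other end stood transcription factors (2.34% of 1197), cytochrome P450 enzymes (2.00% of 350) and NBS-LRR and LRR proteins (1.93% of 517). Peroxidases and glutathione S-transferases (1.65% of 242) and F-box proteins (1.49% of 736) were lower still.

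The classes also differed in length. If each had overlapped at the shares of the 5 length classes its loci fall in, PPR loci would have stood at 3.87%, tRNA synthetases at 5.54%, kinases at 4.56% and transporters at 4.45%. DNA repair and replication loci would have stood at 4.86% and RNA processing loci at 4.69%. The value was 3.47% for transcription factors, 3.51% for cytochrome P450 enzymes and 2.75% for peroxidases and glutathione S-transferases. For PPR loci the observed share was thus well above the share by length, and for kinases it was close to it. NBS-LRR and LRR loci, at 4.65% by length, and F-box loci, at 3.29%, were below it. Many classes were compared without a test, and the smaller ones held fewer than 10 overlapping loci. PPR genes were partners in 26 tail-to-tail, 10 nested and 2 head-to-head pairs. The transporters were almost wholly in tail-to-tail pairs, 37 of them against 2 nested and 0 head-to-head.

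In 6 pairs the same named product stood on both strands. Besides the nuclease PA3 genes they were COBRA-like proteins (LOC_Os03g30250 and LOC_Os03g30260, 1140 bp), which act in cellulose deposition, pectinesterases (LOC_Os08g34900 and LOC_Os08g34910, 1718 bp), PPR proteins (LOC_Os06g08650 and LOC_Os06g08660, 904 bp), ras-related proteins (LOC_Os05g01480 and LOC_Os05g01490, 333 bp) and transporters (LOC_Os04g38010 and LOC_Os04g38026, 951 bp). All but the nuclease pair were tail-to-tail.

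Some combinations of products recurred on other chromosomes. A hexokinase gene and a gene for a receptor-like protein kinase 5 precursor overlapped tail-to-tail on chromosome 1 (LOC_Os01g53930 and LOC_Os01g53920, 1418 bp) and again on chromosome 5 (LOC_Os05g44760 and LOC_Os05g44770, 1364 bp). The hexokinase gene lay on the minus strand of chromosome 1 but the plus strand of chromosome 5. A protein kinase and a ubiquitin-conjugating enzyme gene overlapped on chromosomes 3 (LOC_Os03g57780 and LOC_Os03g57790, 883 bp) and 7 (LOC_Os07g07230 and LOC_Os07g07240, 2288 bp). A dual specificity phosphatase and a transcription factor gene did so on chromosomes 1 (LOC_Os01g64010 and LOC_Os01g64020, 1158 bp) and 12 (LOC_Os12g05660 and LOC_Os12g05680, 2192 bp), the latter within 2 Mb of ART1. These 3 were the only combinations of 2 named descriptions met in more than 1 pair, and all 6 pairs were tail-to-tail.

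The 6 loci with 2 partners formed small groups. For LOC_Os11g32750 and LOC_Os03g10230, the 2 partners also overlapped each other on their own strand. LOC_Os11g32750, a NUDIX hydrolase, overlapped LOC_Os11g32759 by 2656 bp and LOC_Os11g32859 by 123 bp. LOC_Os10g32690, an expressed protein, contained a gene for a hypersensitive-induced response protein (LOC_Os10g32700, 2612 bp) and ran 816 bp into LOC_Os10g32710, a WD repeat protein. LOC_Os11g01020, an RNA recognition motif protein near the end of chromosome 11, met its partners at both ends, tail-to-tail with LOC_Os11g01030 (400 bp) and head-to-head with the autophagy gene LOC_Os11g01010 (218 bp). LOC_Os01g42050, a DNL zinc finger protein, likewise shared 274 bp head-to-head with a ubiquitin-conjugating enzyme gene and 107 bp tail-to-tail with LOC_Os01g42030, a mitochondrial BCS1 chaperone. LOC_Os10g19331 shared 1215 bp with the alpha-1,2-fucosidase LOC_Os10g19334 and 25 bp with LOC_Os10g19330. LOC_Os03g10230 was head-to-head with both LOC_Os03g10224 (176 bp), which has an MT-A70 domain, the domain of RNA adenosine methyltransferases, and LOC_Os03g10220 (149 bp), a methyladenine glycosylase of DNA repair.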

How the data were processed

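RNA-seq libraries were made from rice roots of 4 genotypes in 2 treatments, with 4 replicates in each of 8 groups. According to the methods and the submitters' processing notes, reads were trimmed with Trimmomatic, ribosomal reads were removed with Bowtie, and the rest were aligned to MSUv.7 with HISAT. The deposited file holds 66338 gene models of 55986 loci, with start, end, strand, description and marks, and the authors give these positions with no other unit or normalization. It has 0 columns with values of a single sample, so depth and counts were not analysed here.

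Loci were taken from their representative gene model, and marks and positions were read with Python 3.11.15, pandas 2.3.3, numpy 2.4.6 and scipy 1.17.1. A pair shared at least 1 position on opposite strands. It was nested if all of a locus lay inside its partner, otherwise tail-to-tail if the plus-strand locus started first, and head-to-head if not. The search was tested on simulated loci. Gene model ends hold no exons or UTR limits, so whether shared stretches are exonic or intronic is not given. Named genes are those of the longest overlaps by arrangement, by chromosome and by description class, loci with 2 partners, those at the threshold and loci named by the study. Other loci were chosen after their values were seen. The members and lists were chosen with earlier results of these data known. No sequence is printed, since no genome of this build was used here, and a RefSeq table of another assembly matched no locus identifier. No test was run, and shares were set beside exact 95% binomial intervals only to judge the alternatives.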

Additional observations from a re-analysis of the deposited data

How the results depend on the processing

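The 1228 overlapping loci became 1169 with at least 50 shared positions, 1123 with at least 100, 1070 with at least 10% of the shorter locus, 1344 when a locus took in the full reach of all its gene models, 1293 when the partner could be a TE locus and 1210 with expressed loci alone. The unanchored sequences ChrUn and ChrSy added none. Of 53 alternative values, 43 stayed within the 95% interval of the value reported or within 1.5 times a count. The other 10 moved, and 0 changed sign. The alternatives draw on largely the same loci, and loci are not replicates. The intervals and the 1.5-fold limit are thus only a yardstick, and the tally is no independent check. The 43 include the values with ChrUn and ChrSy and those without descriptions holding transposon words. No non-TE locus had such words and ChrUn and ChrSy added no pair, so these values repeat the reported ones and are no check. A demand of at least 10% of the shorter locus gave 5.60% head-to-head pairs and a median overlap of 960 bp, and at least 100 positions gave a median of 912.5 bp, since short overlaps are left out. For the expressed mark the difference was 3.97 points within length classes, 0.892 among loci with a named product and 0.554 without hypothetical proteins. For more than 1 gene model it was 4.38 points within length classes. For no named product it was -3.10 points within length classes and -14.3 among expressed loci. With no TE locus between neighbors, 6.03% of convergent neighbors overlapped, and 0.698% of divergent ones. The alternatives on hypothetical proteins and on neighbors were chosen after seeing the data. No paired analysis was possible because no value belongs to a sample. The ends of gene models limit all results, and their accuracy was not tested.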

Other observations

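Overlaps that the choice of loci left out were fewer. Non-TE loci on the same strand made 96 overlapping pairs of 177 loci, with a median of 980 shared bp, and 56 of these pairs were nested. Non-TE loci and TE loci on opposite strands made 66 pairs with a median of 395.5 shared bp, of which 38 were tail-to-tail (57.6%), 21 head-to-head (31.8%) and 7 nested (10.6%). The 65 non-TE loci in these pairs included none of the 1228 described above, and no product was named for 28 of them (43.1%). Among 16937 TE loci on chromosomes 1 to 12, 12 pairs overlapped on opposite strands.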
